A study of Drosophila melanogaster with 6 samples.

Results

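The short-form Bomanins BomS1 to BomS6 are 6 small secreted peptides of Drosophila, and their genes were taken by name from a table of read counts that holds 17558 gene identifiers. All 6 members had enough counts to enter the test, which covered 13159 genes. RNA was sequenced from adult male flies 12 h after an injection of the Gram-positive bacterium M. luteus. CR11538-overexpressing flies (Gal80ts; Tub> CR11538, 3 libraries) carried a transgene for the long non-coding RNA CR11538, and control flies (Gal80ts; Tub-Gal4/P{CaryP}attP40, 3 libraries) carried the empty landing site in its place. In both genotypes Gal4 was driven by the ubiquitous tubulin promoter and held back by temperature-sensitive Gal80 until the flies were warmed, so the transgene was driven ubiquitously in the adult. Both genotypes were infected and both carried Gal4 and Gal80ts, so no value here gives the level of a Bomanin in an uninjected fly.

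Bomanins are made mainly by the fat body, the insect counterpart of liver and adipose tissue, and are released into the hemolymph. Their genes are among the most strongly induced targets of the Toll pathway, in which sensors of Gram-positive bacteria and fungi start a protease cascade that activates the ligand spz, the receptor Tl and finally the NF-κB factors Dif and dl. A short-form Bomanin consists of little more than the Bomanin motif that follows the signal peptide. Tailed forms (BomT) extend the motif at its C terminus, and bicipital forms (BomBc) carry a motif on either side of a linker. Flies that lack the Bomanin cluster are known for high susceptibility to Gram-positive bacteria and fungi.

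Library totals ran from 17040432 to 19652500 counts, and mitochondrial genes took 9.88 to 11.7% of them. CR11538 itself had 2291, 3358 and 3312 raw counts in CR11538-overexpressing flies, against 5, 2 and 5 in control flies, so the labels and the targeted gene matched in every library. Genotype lay along the first principal component, which held 68.3% of the variance. The second component held 11.2% and spread replicates 1, 2 and 3 of the CR11538-overexpressing flies, at 25.7, -7.2 and -22.2. The control libraries lay closer together on it, at 7.7, -3.3 and -0.6. Of all genes tested, 14.2% were lower and 15% were higher in CR11538-overexpressing flies by edgeR's quasi-likelihood test at a Benjamini-Hochberg adjusted p under 0.05. With counts scaled to the ribosomal protein gene RpL32 in place of the usual scaling, 692 genes were lower and 3906 higher, against 1871 lower and 1974 higher.

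All 6 genes lie within 6681 bases of chromosome arm 2R (dm6, 18383949 to 18390629). BomS1 (FBgn0034329) stands first at 18383949 to 18384378, and BomS4 (FBgn0034330) follows it at 18384567 to 18384911. Then come BomS2 (FBgn0025583) at 18386602 to 18387030, BomS3 (FBgn0040736) at 18387895 to 18388734, BomS5 (FBgn0040734) at 18389959 to 18390242 and BomS6 (FBgn0040733) at 18390353 to 18390629. BomS6 is read from the minus strand and the other 5 from the plus strand. Each gene has 2 coding exons split by a short intron of 62 to 79 bases. The exon structure sorts the members into groups. BomS1, BomS2 and BomS4 share coding exons of 58 and 77 bases, which encode a precursor of 45 residues. BomS5 and BomS6 share coding exons of 52 and 68 bases and a precursor of 40 residues. BomS3 has coding exons of 52 and 65 bases and a precursor of 39 residues. BomS4, with the same coding layout as the strongly expressed BomS1 and BomS2, was the one member whose level did not differ detectably between genotypes. Its annotated span overlaps that of BomBc2, a bicipital Bomanin on the opposite strand, by 88 bases, all of them exonic in both genes. The members are related in sequence, and reads that fit more than one of them could be lost or split by the counting, which was not tested.

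Of the 6 short Bomanins, 5 were lower in CR11538-overexpressing flies than in control flies, by 43.4 to 56.2%, and BomS4 did not differ detectably. These 5 of 6 stand beside the 14.2% of all genes tested that were lower. For 5 of 6 members the highest CR11538-overexpressing library lay below the lowest control library, which held for 23.3% of all genes tested. BomS1 and BomS2 were lower by more than 2-fold, as were 1.23% of all genes. The median log2 fold change of the 6 members was -0.93, against -0.01 for all genes tested. These libraries are made from whole flies, so fewer cells that express a gene and less of its RNA in each cell cannot be told apart.

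**Figure D1:**
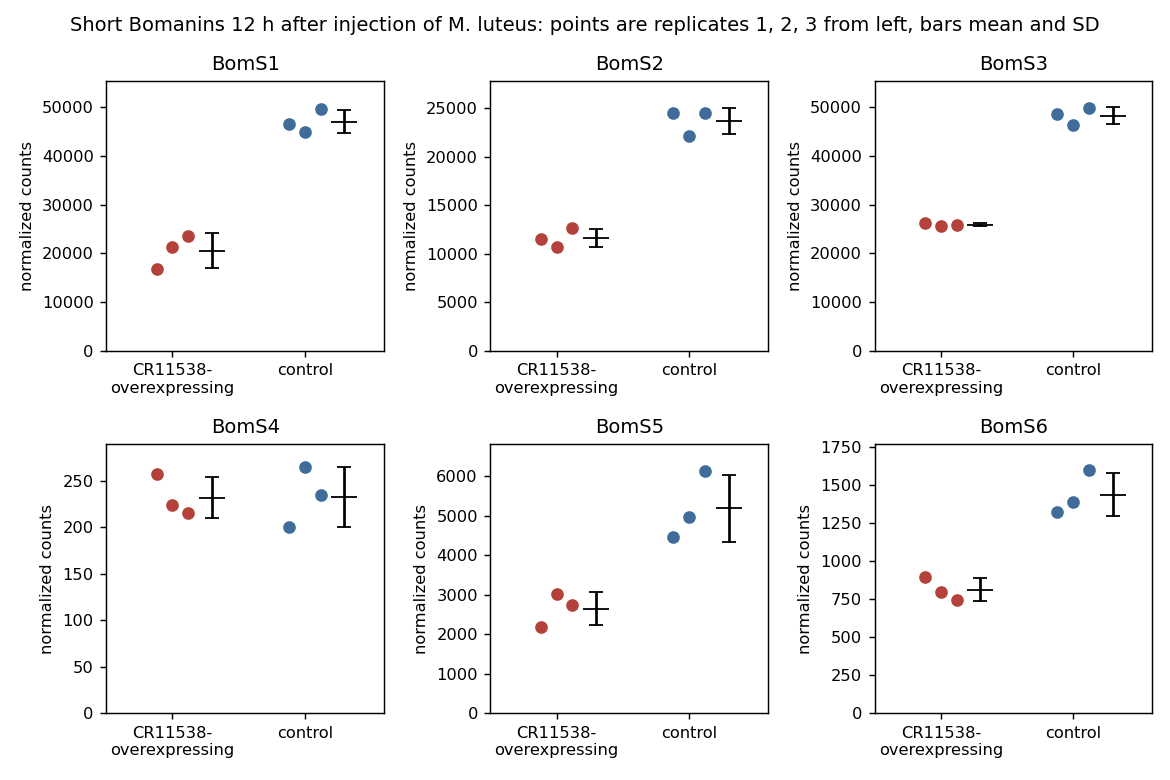
Normalized counts (raw counts scaled by the TMM method to a common library size) of the 6 short Bomanins in 3 CR11538-overexpressing and 3 control libraries, one panel per gene with its own axis from 0; points are libraries and the bar beside them is the mean with its SD. The 2 genotypes are separate in every panel but that of BomS4, where the CR11538-overexpressing libraries sit between 215 and 257 and the control libraries between 200 and 264.

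BomS1 had 16712, 21396 and 23611 normalized counts in CR11538-overexpressing flies, against 46473, 44961 and 49627 in control flies. Even the highest CR11538-overexpressing library was below the lowest control library, which held 1.90 times as many counts, and replicate 1 of the CR11538-overexpressing flies was the lowest of all. The means were 20573 ± 3522 and 47021 ± 2381 (SD, n = 3 each), and the genotypes differed by -1.19 on the log2 scale (SE 0.12, adjusted p = 0.000204 by edgeR's quasi-likelihood test). BomS1 thus had the largest fall of the 6, at 56.2% below the control level, and also the widest spread among CR11538-overexpressing libraries, with a coefficient of variation of 17.1% there and 5.06% in control flies.

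BomS2 had 11509, 10736 and 12631 normalized counts in CR11538-overexpressing flies, against 24468, 22183 and 24466 in control flies. Its groups were well separated and its replicates close together. The means were 11625 ± 953 and 23706 ± 1319 (SD, n = 3 each), with a log2 fold change of -1.03 (SE 0.09, edgeR adjusted p = 6.82e-05), which is 51.0% below the control level.

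BomS3 gave the largest raw counts of the members and the tightest replicates. It had 26203, 25629 and 25792 normalized counts in CR11538-overexpressing flies, against 48597, 46353 and 49878 in control flies. The coefficient of variation in CR11538-overexpressing flies was 1.14%, the smallest of the 6. The log2 fold change was -0.90 (SE 0.07, edgeR adjusted p = 6.82e-05), with means of 25874 ± 296 and 48276 ± 1784 (SD, n = 3 each).

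BomS5 and BomS6 sit side by side at the far end of the cluster on opposite strands. Both had fewer counts than BomS1, BomS2 and BomS3, and both fell. BomS5 had 2194, 3021 and 2737 normalized counts in CR11538-overexpressing flies, against 4452, 4978 and 6118 in control flies. Replicate 1 of the CR11538-overexpressing flies was again the lowest, and the control libraries were spread more widely than for BomS1 to BomS3. The log2 fold change was -0.97 (SE 0.14, edgeR adjusted p = 0.00106), with means of 2651 ± 420 and 5183 ± 852 (SD, n = 3 each).

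BomS6 had 896, 797 and 748 normalized counts in CR11538-overexpressing flies, against 1327, 1390 and 1599 in control flies. Here replicate 1 was the highest of the CR11538-overexpressing libraries, and the groups still did not overlap. The means were 814 ± 75.2 and 1438 ± 142 (SD, n = 3 each), with a log2 fold change of -0.82 (SE 0.09, edgeR adjusted p = 0.000301), the smallest fall among the 5 members that changed. Tested against a fold of 1.5 rather than against no change, BomS1, BomS2 and BomS3 still passed, while BomS5 (adjusted p = 0.0599) and BomS6 (adjusted p = 0.0815) did not.

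BomS4 had 257, 224 and 215 normalized counts in CR11538-overexpressing flies, against 200, 264 and 234 in control flies. The highest and the lowest of the 6 libraries were both control libraries, so the CR11538-overexpressing values lay inside the control range. The means were 232 ± 21.9 and 233 ± 32.2 (SD, n = 3 each), and the log2 difference was -0.01 with a 95% interval of -0.29 to 0.28 (edgeR adjusted p = 0.976). That interval corresponds to a ratio of CR11538-overexpressing to control flies between 0.817 and 1.21, while the ratios of the other 5 members ran from 0.438 to 0.566. Raw counts of BomS4 were 252, 226 and 222 in CR11538-overexpressing flies and 205, 269 and 218 in control flies, enough for a coefficient of variation of 9.46% and 13.8%. Whether the counting separated the strands is not stated by the labels or methods, and without strand the reads from the stretch shared with BomBc2 cannot be assigned to one gene. BomBc2 had 9117 ± 965 normalized counts in CR11538-overexpressing flies and 21393 ± 1622 in control flies. The part of this overlap in the BomS4 values was not tested.

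**Figure D2:**
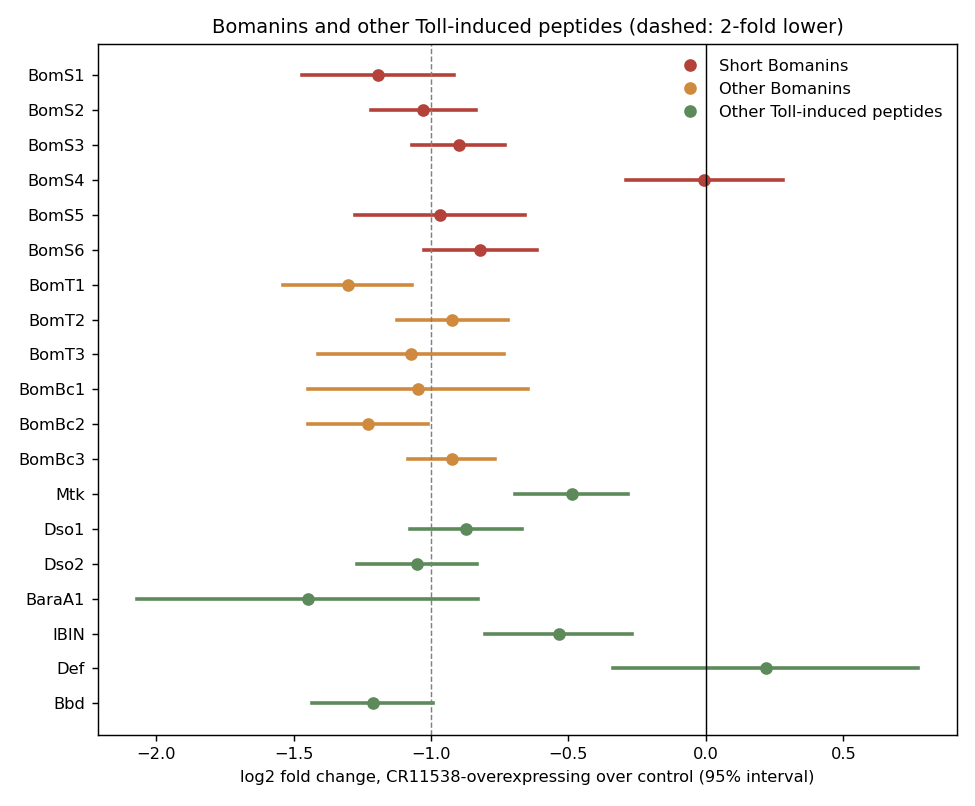
Log2 fold change of CR11538-overexpressing over control flies for the short Bomanins, the other Bomanins and other Toll-induced peptides; points are edgeR estimates, lines are 95% intervals, and the dashed line marks a 2-fold lower level. BomS4 at -0.01 and Def at 0.22 are the only genes whose intervals include 0.

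Levels can be compared between members only per length of transcript. On the FPKM scale, computed here from the normalized counts and the annotated exon length, BomS1 was the most abundant member in both genotypes, at 3036 ± 520 in CR11538-overexpressing flies and 6940 ± 351 in control flies (SD, n = 3 each). On the same scale BomS2 had 1688 ± 138 and 3442 ± 191, and BomS3 had 1793 ± 20.5 and 3345 ± 124. BomS2 and BomS3 overlapped each other in both genotypes and were the only neighbours in the order that did. BomS5 followed at 648 ± 103 in CR11538-overexpressing flies and 1267 ± 208 in control flies, then BomS6 at 219 ± 20.2 and 387 ± 38.3. BomS4 came last, at 43.9 ± 4.16 in CR11538-overexpressing flies and 44.1 ± 6.10 in control flies.

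Among 17252 genes with an annotated length, BomS1 ranked 13 by this level in CR11538-overexpressing flies and 10 in control flies. BomS4 ranked 2048 and 1970, so the member that did not differ detectably was also the member with by far the lowest level. The BomS4 level uses all its exonic bases, including the 88 shared with BomBc2. The part of that overlap in its level and rank was not tested. The gap from BomS6 to BomS4, the next in the order, was 4.98-fold in CR11538-overexpressing flies and 8.77-fold in control flies. The place of BomS3 depends on the transcript model. It has a transcript of 769 bases and one of 301 bases, and if all its reads came from the shorter one its level would be 4580 ± 52.3 in CR11538-overexpressing flies and 8545 ± 316 in control flies, above BomS1. All annotated transcripts of the members other than the long one of BomS3 are shorter than the 370 to 420 bp of the cDNA fragments selected for these libraries. The effect of that selection on these values was not tested.

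Together the 6 members held 0.289, 0.332 and 0.363% of all counts in the CR11538-overexpressing libraries, against 0.669, 0.637 and 0.721% in the control libraries. The exact (Clopper-Pearson) 95% intervals of these shares were at most 0.00804 percentage points wide, so counting error was far smaller than the spread between replicates. The mean share was 0.328 ± 0.0375% in CR11538-overexpressing flies and 0.676 ± 0.0426% in control flies (SD, n = 3 each). BomS1, BomS2 and BomS3 made up nearly all of it in both genotypes.

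**Figure D3:**
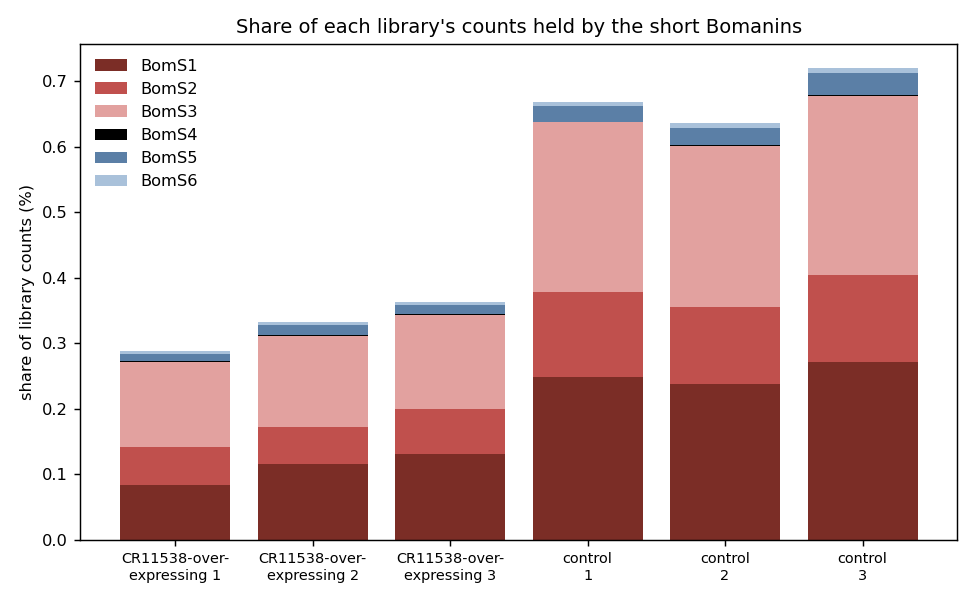
Share of each library's total counts (percent) held by the 6 short Bomanins, stacked by gene for the 3 CR11538-overexpressing and the 3 control libraries. The stacks reach 0.289 to 0.363% in CR11538-overexpressing flies and 0.637 to 0.721% in control flies, with BomS1, BomS2 and BomS3 as the main layers and BomS4 too thin to see at this scale.

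The makeup of the short Bomanin pool shifted less than its size. BomS1 supplied 28.9, 34.6 and 35.9% of the members' summed counts in CR11538-overexpressing flies, against 37.0, 37.4 and 37.6% in control flies. BomS3 supplied 45.4, 41.5 and 39.2% in CR11538-overexpressing flies, against 38.7, 38.6 and 37.8% in control flies. In both cases the genotypes did not overlap, and replicate 1 of the CR11538-overexpressing flies lay farthest from the controls. The share of BomS2 was 18.8% in both genotypes. BomS4 supplied 0.444, 0.362 and 0.327% in CR11538-overexpressing flies and 0.159, 0.220 and 0.177% in control flies.

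Each member was then compared with the summed counts of the other 5 within the same library, in an edgeR fit over all genes scaled to that sum. This comparison was chosen after the values had been seen. BomS4 was higher relative to the other 5 in CR11538-overexpressing than in control flies, with a log2 difference of 1.03 (SE 0.16, 95% interval 0.69 to 1.36, adjusted p = 3.53e-05). Under that scaling 93.7% of all genes tested were likewise higher, with a median of 1.02, so BomS4 stood to the other short Bomanins as most genes of the fly did. The difference ranged from 0.90 to 1.17 when each library was left out in turn and kept an adjusted p under 0.05 each time.

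For the other 5 members this comparison, in which the sum includes BomS4, gave no call with all libraries and genotype as the only term. BomS1 differed from the rest by -0.26 (95% interval -0.54 to 0.02, adjusted p = 0.0729 in the same kind of fit), and it passed with a replicate block, at -0.27 (edgeR adjusted p = 0.0424). Without replicate 3 of the CR11538-overexpressing flies the value of BomS1 was -0.35 (adjusted p = 0.0231) and that of BomS6 was 0.32 (adjusted p = 0.0117). Without replicate 1 of those flies they were -0.13 (edgeR adjusted p = 0.214) and 0.089 (edgeR adjusted p = 0.405). These were the smallest in size with any library left out. For both members the call and the size thus depended on single libraries. With all libraries BomS6 differed by 0.22 (95% interval -0.04 to 0.48, adjusted p = 0.0981). The intervals for BomS2 (-0.28 to 0.28), BomS3 (-0.16 to 0.61) and BomS5 (-0.22 to 0.35) also included 0.

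**Figure D4:**
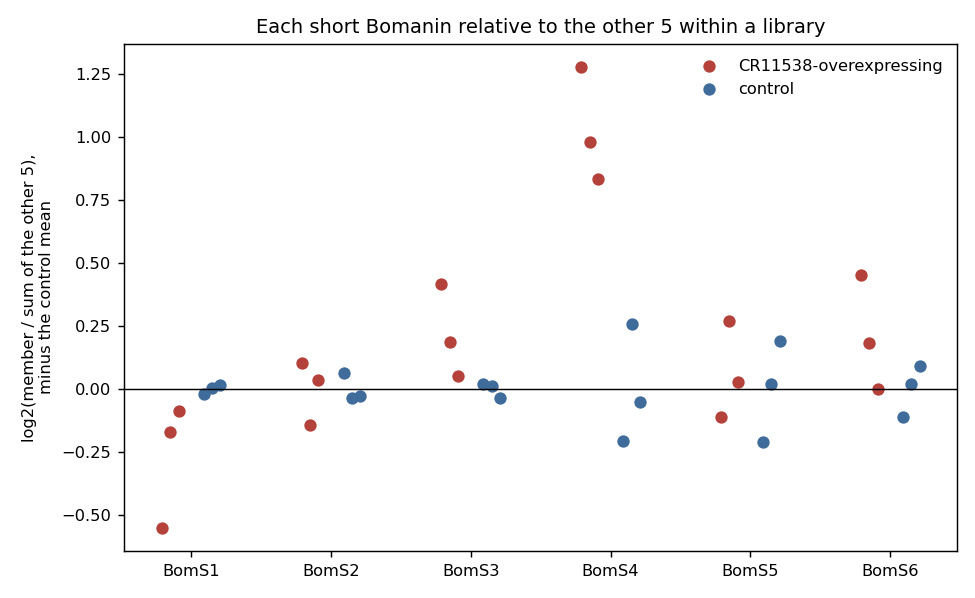
Log2 ratio of each short Bomanin to the summed counts of the other 5 in the same library, shown as the difference from the control mean; points are libraries, with replicates 1, 2 and 3 from left to right. BomS4 lies above every control library in all 3 CR11538-overexpressing libraries, and BomS1 lies lowest in replicate 1 of the CR11538-overexpressing flies.

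Ratios between pairs of members need no scaling between libraries, and all 15 pairs were compared. In the 5 pairs that hold BomS4 the genotypes did not overlap, and the log2 ratio moved by 0.82 to 1.21 in size. These 5 pairs share BomS4, so they are not separate results. Relative to the summed counts of the members other than BomS4, 93.7% of all genes tested were likewise higher in CR11538-overexpressing flies. Of the 10 pairs without BomS4, only BomS1 to BomS3 had no overlap, with a difference of -0.31. No difference among these 10 pairs was larger than 0.39 in size. The exact two-sided permutation test with 3 libraries against 3 cannot give a p below 0.1, and no pair passed it, the smallest value adjusted over the 15 pairs being 0.25. Every pair without overlap had this lowest p of 0.1 in that test, the pair of BomS1 and BomS3 among them. The ratio of BomS4 to BomS6 had the smallest spread among CR11538-overexpressing libraries, with a log2 value of -1.81 ± 0.02 in CR11538-overexpressing flies and -2.63 ± 0.21 in control flies (SD, n = 3 each). That pair was picked as the smallest of 15 spreads, each over 3 libraries, and the spread was not tested.

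Of the other Bomanins, all 6 of 6 were lower by edgeR and by DESeq2, beside 14.2% of all genes tested that were lower by edgeR. Their median log2 fold change was -1.06, against -0.01 for all genes, and their falls were not tested against those of the short forms. Among the tailed forms BomT1 fell by 1.30, BomT3 by 1.07 and BomT2 by 0.92 on the log2 scale. Among the bicipital forms BomBc2 fell by 1.23, BomBc1 by 1.05 and BomBc3 by 0.93. BomT3 and BomBc3 lie on chromosome arm 3R, away from the cluster, and their falls were within the range of the others.

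Within the cluster BomS4 is enclosed by genes that fell. BomS1 on its left side changed by -1.19 and BomBc2 on its right side by -1.23, while BomS4 was at -0.01. Beyond the Bomanins, 15 further genes lie within 25 kb of the cluster and 12 of them were tested. Of these 12 genes, 2 were lower and 3 were higher, with a median of 0.04. These counts are near the background of 14.2% lower and 15% higher over all genes tested, so they set the neighbours apart from other genes in neither direction. The lower ones were Idgf5, which encodes a chitinase-like growth factor (-0.44, adjusted p = 0.0477), and the glutathione S-transferase gene GstE10 (-0.39, adjusted p = 0.0181), both by edgeR. Their falls were smaller than that of any of the 5 changed members, and the values of Idgf5 overlapped between genotypes. Without replicate 2 of the CR11538-overexpressing flies, or without replicate 1 of the control flies, 0 of these genes were lower, and 1 was lower without replicate 3 of the CR11538-overexpressing flies or replicate 2 or 3 of the control flies. The higher ones were GstE3 (0.76), GstE1 (0.58) and GstE6 (0.42), all glutathione S-transferase genes. GstE2, GstE5, GstE7, GstE8, GstE9 and imd, the adaptor of the Imd pathway, did not pass the test, with values between -0.12 and 0.30. GstE4, which had under 100 normalized counts on average, had a log2 fold change of -0.69 with a 95% interval of -2.57 to 1.19.

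**Figure D5:**
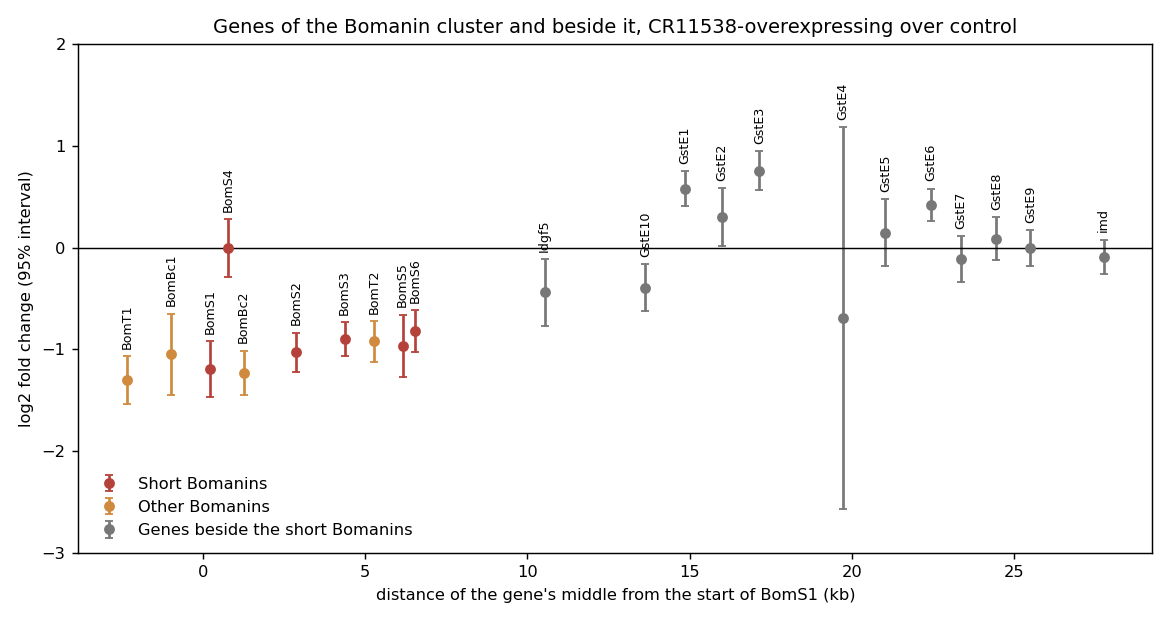
Log2 fold change of CR11538-overexpressing over control flies with its 95% interval (edgeR) for the Bomanins on chromosome arm 2R and the tested genes beside them, against the distance in kb of each gene's middle from the start of BomS1. All Bomanins but BomS4 lie between -1.30 and -0.82, and the genes to the right of BomS6 lie on both sides of 0.

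Outside the Bomanin family, the list of Toll-induced peptides moved the same way. Of 7 such genes measured, 6 were lower and 0 higher by edgeR, beside 14.2% lower and 15% higher over all genes tested, and their median log2 fold change was -0.87. At an unadjusted p under 0.05, and by DESeq2, 0 were higher as well. Bbd, a secreted protein that short-form Bomanins are known to need in order to accumulate in hemolymph, had 49961, 58664 and 57069 normalized counts in CR11538-overexpressing flies, against 125668, 122223 and 135893 in control flies. Its log2 fold change of -1.21 (edgeR adjusted p = 6.22e-05) was close to that of BomS1. BaraA1, which encodes the precursor of the Baramicin peptides, had the largest fall of the list at -1.45, with 728, 1275 and 1992 normalized counts in CR11538-overexpressing flies, against 3392, 3502 and 4024 in control flies. A near-identical copy of this gene exists in many strains, so its count is uncertain. Dso1 and Dso2, antifungal peptides, fell by 0.87 and 1.05, and the smaller falls were those of IBIN, an infection-induced peptide, at 0.54 and of the antifungal peptide gene Mtk at 0.49. Def, which encodes an antibacterial defensin, did not pass, at 0.22 on the log2 scale with an edgeR adjusted p of 0.552, and its CR11538-overexpressing libraries ran from 5316 to 12112 normalized counts, against 5969 to 8322 in control flies. Without replicate 1 of the CR11538-overexpressing flies Def was higher, at 0.47 (edgeR adjusted p = 0.0410), and 6 genes of the list were lower as before. Scaled to RpL32, IBIN did not pass the test (-0.34, adjusted p = 0.0537).

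Of 21 tested components of the Toll pathway, 13 were lower and 0 higher by edgeR, beside 14.2% lower and 15% higher over all genes tested, and the median was -0.40. By DESeq2 12 were lower and 0 higher, and at an unadjusted p under 0.05 0 were higher by edgeR. Scaled to RpL32, 7 were lower, the calls of PGRP-SA, PGRP-SD, GNBP1, GNBP3, Tl and pll being lost, and 1, the ubiquitin ligase gene Pli, was higher (0.32, edgeR adjusted p = 0.00696). The 3 largest falls were in the extracellular cascade. The proteases Hayan and SPE, of which SPE cleaves the ligand spz, changed by -1.02 and -0.96, and nec, a serpin that restrains the cascade, by -0.81. Among the sensors, PGRP-SA changed by -0.40, PGRP-SD by -0.46 and GNBP1 by -0.45. GNBP3, which senses fungi, and the protease modSP changed by -0.52 and -0.55.

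The receptor Tl changed by -0.39. The kinase pll was at -0.29 (edgeR adjusted p = 0.0424), a call that was lost by DESeq2 (adjusted p = 0.0796), with the library total alone, with RpL32 scaling and in 5 of the 6 fits that left out a library, all but the one without replicate 3 of the CR11538-overexpressing flies (-0.34 to -0.22 in those 5). The NF-κB factors dl and Dif, which bind the promoters of Toll targets, changed by -0.66 and -0.40, and their inhibitor cact, itself a Toll target, by -0.57. The adaptors Myd88 (-0.02) and tub (-0.24), the ligand spz (-0.19) and the proteases grass (-0.24) and psh (-0.26) did not pass the test. Traf6 (-0.16), Pli (0.13) and Deaf1 (-0.02) did not pass it either. Lower calls of grass appeared with the library total alone (edgeR adjusted p = 0.0270) and with the replicate block (0.0210). Without replicate 1 of the CR11538-overexpressing flies both grass (-0.32, edgeR adjusted p = 0.0127) and psh (-0.39, 0.0134) were lower.

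The genes whose pattern over the 6 libraries was most like the mean pattern of the short Bomanins were sought among 10216 genes with at least 100 normalized counts on average. Likeness was measured as the root mean square difference between centred log2 normalized counts. The mean pattern took in BomS4, which did not differ detectably, so its fall was smaller than that of the changed members alone. The closest 5 outside the family were Pfas (0.0359), CG3071 (0.050), Dso1 (0.0523), nst (0.0620) and nec (0.0623). Pfas, a purine synthesis enzyme, had 1187, 1261 and 1284 normalized counts in CR11538-overexpressing flies, against 2132, 2287 and 2315 in control flies. Of the members themselves, BomS3 was closest to their mean pattern at 0.0672 and BomS4 farthest at 0.435, with BomS1 next at 0.233. This is a description over 6 libraries that differ mainly by genotype.

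Markers of the fat body, the main source of Bomanins, were measured in the same libraries. By edgeR 0 of 8 tested markers were lower and 4 were higher, beside 14.2% lower and 15% higher over all genes tested. At an unadjusted p under 0.05, 1 was lower and 5 were higher by edgeR, and by DESeq2 0 were lower and 3 higher. Their summed level ran from 43371 to 77980 normalized counts in CR11538-overexpressing flies, against 33047 to 42182 in control flies. The lipoprotein gene apolpp, the largest part of that sum, had 54420, 41278 and 26669 normalized counts in CR11538-overexpressing flies, against 28641, 20237 and 21692 in control flies. Lsd-1 was higher at 1.22 on the log2 scale (edgeR adjusted p = 0.000467), with no overlap between genotypes. The values of ppl (0.26), Lpin (0.15), Lsd-2 (-0.06) and AkhR (-0.31) did not pass the test. Among these markers the larval fat body genes Fbp1 and Fbp2 had the largest log2 fold changes, 4.70 and 4.18, with control libraries that spread widely. Fbp1 had 2948, 2963 and 1276 normalized counts in CR11538-overexpressing flies, against 221, 44.2 and 5.37 in control flies. The log2 fold changes of Fbp1 and Fbp2 were 6.54 and 5.87 without replicate 1 of the control flies, and over the 6 fits that left out a library they were as low as 4.17 and 3.67 (without replicate 3 of the control flies). The call of apolpp was lost without replicate 2 of the CR11538-overexpressing flies (0.79, edgeR adjusted p = 0.0719), without replicate 2 of the control flies (0.70, adjusted p = 0.118) and without replicate 3 of the control flies (0.74, adjusted p = 0.0992). It was also lost by DESeq2 with all libraries (0.80, DESeq2 adjusted p = 0.0570). Without replicate 1 of the CR11538-overexpressing flies AkhR, the receptor of adipokinetic hormone, was lower (-0.38, edgeR adjusted p = 0.0407). Beside the same background, of 7 tested hemocyte markers 5 were higher and 0 lower, by edgeR, by its unadjusted p and by DESeq2 alike, with summed levels of 12969 to 14663 in CR11538-overexpressing flies and 10729 to 11069 in control flies. Those that were higher numbered 4 without replicate 2 of the CR11538-overexpressing flies or replicate 1 or 2 of the control flies. Of 8 midgut markers 4 were higher and 2 lower, and of 6 testis markers 2 were higher and 0 lower (1 lower at an unadjusted p under 0.05, 0 by DESeq2). The midgut markers that were lower numbered 1 without replicate 1 or replicate 3 of the CR11538-overexpressing flies or replicate 3 of the control flies, and 0 without any of the other 3 libraries. The testis markers that were higher numbered 1 without replicate 1 of the control flies and 0 without their replicate 2. No marker of these lists was at 0 in every library. Their part in the Bomanin values was not tested.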

How the data were processed

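Poly(A) RNA was read in paired ends. Per the submitters' processing notes the genome build was dm6, HISAT2 2.0.5 aligned the reads and featureCounts 1.5.0-p3 assigned them to genes. The authors deposited the resulting raw counts, one column a library, not normalized. Neither the strand setting nor the annotation release is known here (not given in the sources used here). Genotypes came from the labels. The labels do not say whether replicates were separate cultures of flies, so p-values measure the spread between these libraries. Of the 17558 identifiers, 17252 were named from the Ensembl annotation of dm6. Drs and BaraA2 were not analysed here.

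Counts were tested with edgeR 4.0.16 in R 4.3.3: default filterByExpr, TMM scaling, genotype as the only term (4 residual degrees of freedom) and Benjamini-Hochberg adjustment over 13159 genes. Calls were made at an adjusted p under 0.05, and "lower by more than 2-fold" adds a fold of 2. An SE is the log2 coefficient without shrinkage over the square root of F. Alternatives were DESeq2 1.42.0, other scalings and filters, a test against a fold of 1.5, a replicate block, and each library left out. Same-numbered libraries of the genotypes correlated only weakly, and no pairing was assumed. The main edgeR fit was tested on simulated counts with known changes. Exact tests were run with scipy 1.17.1, tables were made with pandas 2.3.3 on Python 3.11.15, and figures were drawn with matplotlib 3.10.9.

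The members, the gene lists and the rule for naming genes were chosen with earlier results of these data known. The rule named all members, all genes of the lists, neighbours within 25 kb with at least 100 normalized counts on average and the 5 most similar genes. The fit against the other 5 members and the shortest-transcript lengths were added after the values had been seen. Intervals of shares cover counting error only, and 3 counts would be the limit of a count of 0 (1.53e-05% to 1.76e-05% of a library).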

Additional observations from a re-analysis of the deposited data

How the results depend on the processing

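BomS1, BomS2, BomS3, BomS5 and BomS6 kept their direction under all 14 alternatives, with log2 fold changes from -1.31 to -1.0, -1.09 to -0.84, -0.93 to -0.71, -1.07 to -0.78 and -0.89 to -0.63. BomS4 lay between -0.11 and 0.19 and passed under none. In the test against a fold of 1.5, 3 short Bomanins were lower, and BomS5 (-0.97) and BomS6 (-0.82) no longer passed. That test called 145 genes lower and 326 higher in all, against 1871 and 1974. RpL32 itself averaged 11910 ± 209 normalized counts in CR11538-overexpressing flies and 13609 ± 633 in control flies (SD, n = 3 each). Scaled to it, the median of all genes moved to 0.19 and that of the members to -0.74, 1 member was lower by more than 2-fold, 7 Toll components were lower and 1 higher, 0 neighbouring genes were lower, and 692 genes were lower and 3906 higher in all. With DESeq2 size factors 1 neighbouring gene was lower. Of the fat body markers, 1 was lower with the library total alone and 1 with the replicate block, and 2 were higher when at least 10 counts were asked for in every library. That filter took out Fbp1 and Fbp2, which had 5 and 8 raw counts in replicate 3 of the control flies.

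With each library left out in turn, the neighbouring genes that were lower ranged from 0 to 2, other Toll-induced peptides that were higher from 0 to 1 and fat body markers that were lower from 0 to 1. BomS1 against the other members ranged from -0.35 to -0.13 and BomS6 from 0.089 to 0.32. Without control replicate 2, 1146 genes were lower and 1193 higher in all, and without control replicate 1, 1249 and 1255, and the cause was not tested.

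The replicate block gave 1925 genes lower and 2061 higher, with the same 5 short Bomanins lower, and BomS1 against the other members at -0.27 (edgeR adjusted p = 0.0424). The deviations of same-numbered libraries correlated weakly, at 0.124, 0.032 and 0.061. Each CR11538-overexpressing replicate correlated best with its same-numbered control, but control replicate 2 correlated best with CR11538-overexpressing replicate 3 (0.049). Whether the numbers mark a pairing was not tested. Without mitochondrial genes the share of the members was 0.368% in CR11538-overexpressing flies and 0.755% in control flies. With the shortest transcripts their summed level in control flies was 20625 on the FPKM scale, a change made by BomS3 alone. The longest transcripts gave the same lengths. A comparison of transcript sequences between Bomanins was not run. Of 396 recomputed values, 371 kept their side of the threshold, or stayed within a fold of 1.5 for counts, or within the spread. A change of direction between values that did not pass was not counted as a change. Depth limits BomS4 most, with 205 to 269 raw counts a library.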
